A study of Mus with 4 samples.

Results

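Immediate early genes and endothelial flow-response genes were examined in newborn mouse hearts. The set held 10 genes, found by Ensembl identifier among the 55487 identifiers of the deposited expression table: the AP-1 genes *Fos*, *Fosb*, *Jun*, *Junb* and *Atf3*, the zinc finger gene *Egr1*, *Ier2*, the phosphatase gene *Dusp1*, and the flow-response genes *Klf2* and *Klf4*. All 10 passed the filter of a mean of at least 1 FPKM (fragments mapped per kilobase of gene model, scaled to the mapped total of a library), as did 14325 identifiers in all. RNA-Seq had been performed on 4 libraries of heart tissue taken at P0 (postnatal day 0), with 2 from WT mice and 2 from miR-187 mice. In the line of the study, a single copy of mmu-miR-187 under the mouse *Tek* (*Tie2*) promoter was placed at the *Rosa26* site on a C57BL/6J background, so that the transgene is meant for endothelial cells, whereas the labels name heart as the source of each library. The labels name no genotype beyond WT and miR-187 and give no treatment. The methods of the study say that the P0 RNA-Seq used WT pups and pups homozygous for the insertion (KI/KI). They also speak of cardiac endothelial cells as the cells collected, which conflicts with the labels; the labels are followed here, and markers of cell types were not analysed because no source here paired their symbols with the identifiers. Nothing states that the replicates came from separate animals, so p-values concern only these libraries. They rest on a variance pooled over all identifiers as well as on the spread of the gene itself.

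Immediate early genes need no new protein for their transcription. Kinase cascades of the MAPK family act on factors already bound at their promoters, such as SRF with its ternary complex partners and CREB, and transcripts appear within minutes of growth factor, stretch, ischemia or injury signals, tissue handling included. Fos and Jun proteins then dimerize as AP-1, while Dusp1 removes phosphates from the same MAP kinases and closes the loop. *Klf2* and *Klf4* belong to another branch, in which laminar shear on endothelium acts through MEK5, ERK5 and MEF2 to switch on quiescence genes, and in the heart both are known from endocardium and valve formation.

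The 10 loci were mostly short. In the RefSeq table of assembly GRCm38.p6, the build that the submitters name as mm10, the median span of the 10 genes was 3.29 kb, against 17.1 kb for 21900 protein-coding genes. *Ier2* was the most compact at 1.52 kb, and *Atf3* had the longest span at 13.0 kb. Of the 10 genes, 8 spanned no more than 5.5 kb. On chromosome 8, *Ier2* (84661331 to 84662852) lies 314 kb from *Junb* (84976909 to 84978748). *Klf2* is on the same chromosome (72319062 to 72321654) and *Jun* and *Klf4* share chromosome 4, whereas *Fos*, *Fosb*, *Atf3*, *Dusp1* and *Egr1* are each on a chromosome of their own (12, 7, 1, 17 and 18).

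The libraries were not alike in their most abundant transcripts. The most abundant identifier took up 18.5% of summed FPKM in the first WT library and 21.0% in the first miR-187 library, against 4.45% and 5.05% in the second library of each. Identifiers of at least 1 FPKM were also more numerous in the first replicates (17047 and 15021) than in the second (13270 and 13524). The labels attach no batch, litter or day to a replicate number. Both properties move with the replicate contrast described below, and their part in it was not tested beyond the rescaling given there. Some identifiers were far higher in miR-187 replicate 2 than in miR-187 replicate 1. On the log2(FPKM + 1) scale the step was 9.18 for ENSMUSG00000024653.2, 5.72 for ENSMUSG00000022595.7, 5.27 for ENSMUSG00000017723.11 and 5.15 for ENSMUSG00000025150.10. In WT the same steps were -1.49, 0.056, -0.076 and 1.29. Whether they bear on the high *Junb* and *Ier2* values of miR-187 replicate 2 was not tested. Read depth is unknown, since the deposited values are not counts. Where a gene is described below, its FPKM is given for replicate 1 and then for replicate 2 of a group.

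To ask whether miR-187 altered this response in the heart, the groups were compared gene by gene. No difference passed the test for any of the 10 genes. Adjusted p-values under 0.05 were found for 0 genes higher and 0 genes lower in miR-187 (limma, Benjamini-Hochberg over all 14325 identifiers), and 0 had an unadjusted p under 0.05. Over all identifiers tested, 0% were called higher and 0.00698% lower, and unadjusted calls were 1.32% and 1.80%. WT and miR-187 values overlapped for each of the 10 genes, so 0 genes separated the groups, whereas 12.3% of identifiers had both miR-187 libraries above both WT libraries and 13.2% had them below. The median log2 difference, miR-187 minus WT on the log2(FPKM + 1) scale, was 0.088 for the 10 genes and -0.044 for all identifiers. The direction depended on single libraries: the median of the 10 genes was -0.37 without WT replicate 1, 0.67 without WT replicate 2, 0.35 without miR-187 replicate 1 and -0.28 without miR-187 replicate 2, and each of the 10 genes turned sign with at least 1 of these omissions.

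**Figure D1:**
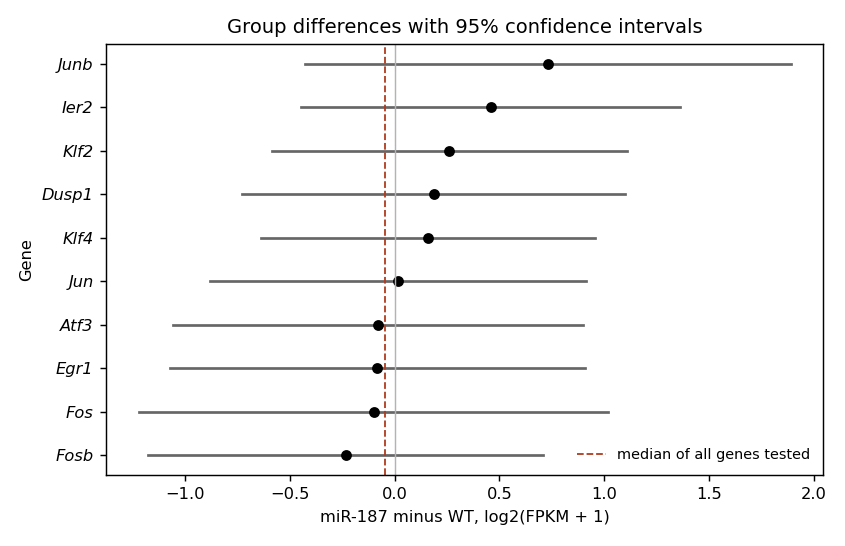
Difference between group means for each gene (x axis, miR-187 minus WT on the log2(FPKM + 1) scale; points) with the 95% confidence interval from limma (lines), 2 libraries per group; the dashed line is the median of all 14325 identifiers tested. Every interval crosses 0, with estimates from -0.23 for *Fosb* to 0.73 for *Junb*.

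These intervals were wide. For *Fos* the interval ran from -1.22 to 1.02, so that a difference of about 2-fold in either direction lay within it. The narrowest, that of *Klf4*, ran from -0.64 to 0.96. Each standard error came mainly from a variance trend over all identifiers (21.5 total degrees of freedom), less from the spread of the gene itself. The replicate steps of *Fos* were 1.90 in WT and 1.44 in miR-187 (log2), so differences beyond its interval are not excluded. The comparison therefore did not show that the genes were alike in both groups. In bulk RNA, fewer cells of a type and less RNA per cell cannot be told apart, which applies to each value given here.

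The spread lay between libraries of the same group. The replicate contrast and the library orders described from here on were not among the planned comparisons. All 8 immediate early genes had higher FPKM in both second replicates than in either first replicate, a pattern held by 11.2% of all identifiers tested and by 17.7% of the 6192 with a mean of at least 5 FPKM, a level that all 10 genes reached. The reverse, both second replicates below both first replicates, held for 0 of the 10 genes, for 23.4% of all identifiers and for 10.1% of those at 5 FPKM or more. Taken group by group, replicate 2 was above replicate 1 for 10 of 10 genes in WT (52.8% of all identifiers, 69.2% at 5 FPKM or more) and for 8 of 10 in miR-187 (34.9% and 43.0%). *Klf2* and *Klf4* followed another order. The 8 immediate early genes summed to 128 then 336 FPKM in WT and to 156 then 321 FPKM in miR-187. The means of these sums, 232 ± 147 FPKM for WT and 239 ± 117 FPKM for miR-187 (SD, n = 2 each), differed by far less than the replicates of either group.

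**Figure D2:**
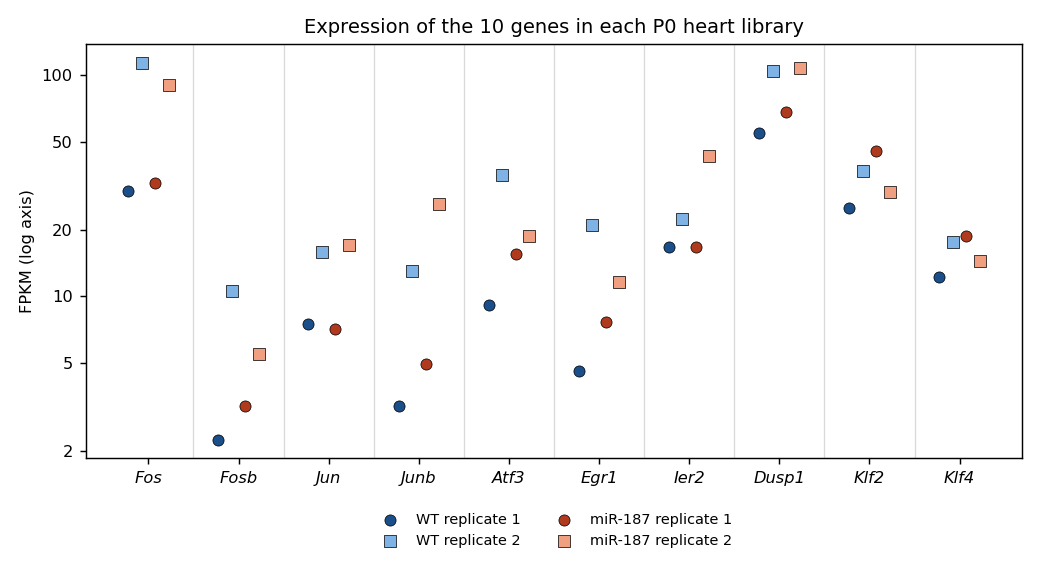
FPKM (y axis, log scale) of each gene (x axis) in the 4 libraries, WT in blue and miR-187 in red, with circles for replicate 1 and squares for replicate 2; each symbol is 1 library. For the 8 genes from *Fos* to *Dusp1* both squares lie above both circles, whereas for *Klf2* and *Klf4* the miR-187 circle is the highest.

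*Fos* (ENSMUSG00000021250.13), the prototype of its family, whose product binds DNA as a dimer with Jun proteins, was among the 3 most abundant of the 10 genes in every library. Its values were 29.9 then 114 FPKM in WT and 32.7 then 90.7 FPKM in miR-187. The second replicate stood 3.82-fold above the first in WT and 2.77-fold above it in miR-187, while the means were 71.9 ± 59.5 FPKM for WT and 61.7 ± 41.0 FPKM for miR-187 (SD, n = 2 each). The group difference was -0.10 ± 0.54 (log2, SE; limma adjusted p = 1.00).

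*Fosb* (ENSMUSG00000003545.3), a close relative whose product also pairs with Jun proteins, was the least abundant of the set in every library. It read 2.24 then 10.6 FPKM in WT against 3.19 then 5.48 FPKM in miR-187. Both low values came from first replicates, and the miR-187 pair lay inside the WT pair. Among the tested identifiers of a library, *Fosb* ranked at the 28.6th percentile in WT replicate 1 and at the 73.5th in the other WT library. The group difference was -0.23 ± 0.45 (log2, SE).

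*Jun* (ENSMUSG00000052684.4) encodes the chief partner of Fos. WT gave 7.46 then 15.8 FPKM, and miR-187 gave 7.07 then 17.0 FPKM. The values fell into a low pair and a high pair by replicate number, and within each pair the groups were nearly equal. The group difference, 0.016 ± 0.43 (log2, SE), was the closest to 0 of the 10.

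*Junb* (ENSMUSG00000052837.7), a weaker transactivator that can restrain Jun, had the widest range. WT had 3.17 then 13.0 FPKM and miR-187 had 4.92 then 26.1 FPKM, an 8.25-fold span from lowest to highest. Here miR-187 was higher at either replicate number, by 1.55-fold in replicate 1 and 2.02-fold in replicate 2, but WT replicate 2 exceeded miR-187 replicate 1. The log2 difference of 0.73 had a standard error of 0.56 (unadjusted p = 0.203, adjusted p = 1.00, limma). Without miR-187 replicate 1 it became 1.83, and without miR-187 replicate 2 it was -0.36. The value of 1.83 rests on a single miR-187 library, and the WT libraries set against it were themselves 1.74 apart on the log2(FPKM + 1) scale.

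*Atf3* (ENSMUSG00000026628.13) encodes a stress-induced factor that joins AP-1 dimers and often represses transcription. Its level was 9.09 then 35.3 FPKM in WT, and 15.6 then 18.8 FPKM in miR-187. The WT libraries were the lowest and the highest, 3.89-fold apart, and the miR-187 libraries, 1.21-fold apart, lay between them.

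*Egr1* (ENSMUSG00000038418.7), a serum- and stretch-induced zinc finger regulator, showed the same arrangement. WT showed 4.57 then 20.9 FPKM, and miR-187 showed 7.67 then 11.5 FPKM. The WT libraries differed 4.58-fold and enclosed the miR-187 libraries, which differed 1.51-fold. The group differences were -0.079 ± 0.47 for *Atf3* and -0.083 ± 0.48 for *Egr1* (log2, SE).

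*Ier2* (ENSMUSG00000053560.5), a rapidly induced nuclear regulator, measured 16.7 then 22.4 FPKM in WT and 16.7 then 43.1 FPKM in miR-187. The first replicates were nearly equal and miR-187 replicate 2 stood above the other three. Its group difference of 0.46 ± 0.44 (log2, SE; limma unadjusted p = 0.304) was the second in size after that of *Junb*.

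*Dusp1* (ENSMUSG00000024190.7), which inactivates MAP kinases, had the highest mean of the 10 genes at 84.0 FPKM. WT libraries had 54.8 then 104 FPKM, and those of miR-187 had 68.5 then 108 FPKM. The second replicates were 1.90-fold and 1.58-fold above the first, narrower steps than those of *Fos*, and the ratio of *Dusp1* to *Fos* within a library was 1.84 (WT) and 2.10 (miR-187) in the first replicates but 0.914 and 1.20 in the second.

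The immediate early genes thus fell into 2 arrangements. For *Fos*, *Fosb*, *Atf3* and *Egr1* the order was WT replicate 1, miR-187 replicate 1, miR-187 replicate 2 and WT replicate 2 from lowest to highest, an order shared by 3.25% of all identifiers and 5.51% of those at 5 FPKM or more. For *Junb*, *Ier2* and *Dusp1* the second replicates traded places (2.59% and 3.92%). *Jun* was also highest in miR-187 replicate 2, with its nearly equal first replicates the other way round. A step of at least 2-fold between replicates in both groups was seen for *Fos*, *Jun* and *Junb*, 3 of the 10 genes, against 0.517% of identifiers and 0.533% of those at 5 FPKM or more. The median step of the 8 genes on the log2(FPKM + 1) scale was 1.79 in WT and 0.91 in miR-187, whereas the median over the 6192 identifiers of at least 5 FPKM was 0.25 and -0.099.

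**Figure D3:**
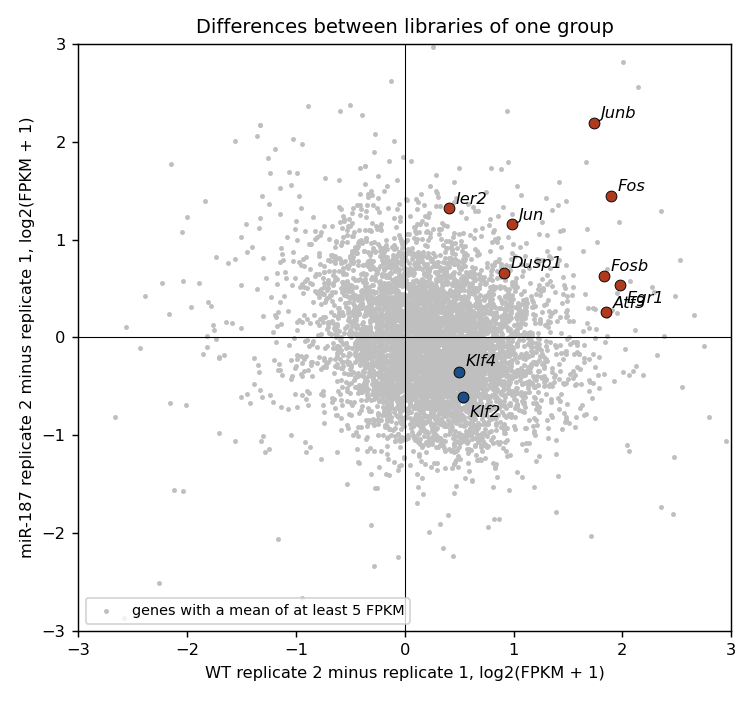
Replicate 2 minus replicate 1 on the log2(FPKM + 1) scale in WT (x axis) and in miR-187 (y axis); grey dots are the 6192 identifiers with a mean of at least 5 FPKM, of which 33 lie outside the axes, and the larger symbols are the 8 immediate early genes (red) and *Klf2* and *Klf4* (blue). The red symbols all lie right of 0 and above 0, and both blue symbols lie right of 0 and below 0.

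The step was then measured under other scalings of the libraries. The same 8 of 10 genes had both second replicates on top with median centring, with TMM factors (trimmed means of log ratios between libraries), with quantile normalization, and after rescaling each library without the 12 identifiers that were among the 10 most abundant of any library, a setting chosen after seeing the data. Under that rescaling the median steps were 1.57 in WT and 0.70 in miR-187, and 4.46% of all identifiers had both second replicates on top. The background was between 13.6% and 17.8% under the other scalings.

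*Klf2* (ENSMUSG00000055148.7), the flow-induced factor of quiescent endothelium, measured 25.2 then 36.8 FPKM in WT and 45.7 then 29.5 FPKM in miR-187. *Klf4* (ENSMUSG00000003032.8), induced by the same ERK5 route, measured 12.2 then 17.6 FPKM in WT and 18.8 then 14.5 FPKM in miR-187. Both were highest in miR-187 replicate 1 and lowest in WT replicate 1, in an order of libraries that was the same for the pair and was held by 4.87% of identifiers and 6.64% of those at 5 FPKM or more. In the miR-187 group they ran against the immediate early genes, since replicate 1 exceeded replicate 2 by 1.55-fold for *Klf2* and 1.30-fold for *Klf4*. Opposed steps, with replicate 2 above replicate 1 in WT and below it in miR-187, were common in the table, at 35.4% of identifiers and 42.5% of those at 5 FPKM or more. The group differences were 0.26 ± 0.41 for *Klf2* and 0.16 ± 0.38 for *Klf4* (log2, SE), within the spread of the replicates; without miR-187 replicate 1 they were -0.045 and -0.016.

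Ratios within a library cancel any factor common to its genes. *Klf2* exceeded *Klf4* by 2.06-fold then 2.10-fold in WT, and by 2.43-fold then 2.04-fold in miR-187. This ratio moved by no more than 1.19-fold over the 4 libraries. The ratio of *Fos* to *Klf2* moved 4.32-fold, from 1.19 then 3.09 in WT to 0.716 then 3.08 in miR-187. *Klf2* was therefore more abundant per length than *Fos* in miR-187 replicate 1 and less abundant in the other three libraries. The second replicates of both groups had nearly the same *Fos* to *Klf2* ratio. Ratios within the immediate early genes moved as well, by 1.61-fold for *Fos* to *Fosb* and 1.80-fold for *Fos* to *Jun*. The moves were 2.29-fold for *Dusp1* to *Fos*, 3.19-fold for *Ier2* to *Junb* and 3.62-fold for *Junb* to *Jun*, against 2.45-fold for *Dusp1* to *Klf2*. Ratios of other gene pairs were not examined.

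**Figure D4:**
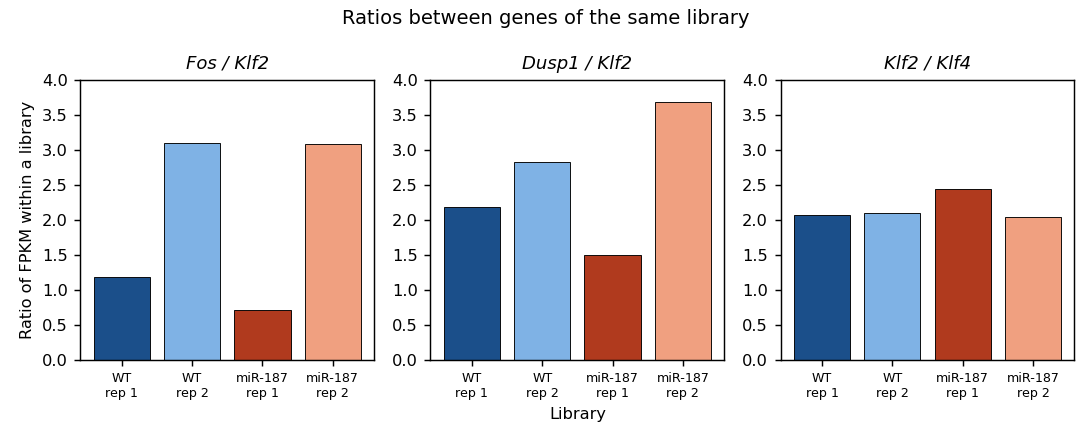
Ratio of FPKM between genes of the same library (y axis, from 0) in each of the 4 libraries (x axis; 1 bar per library, rep standing for replicate). *Fos* to *Klf2* and *Dusp1* to *Klf2* are higher in both second replicates, at 3.08 or more and 2.83 or more, whereas *Klf2* to *Klf4* stays between 2.04 and 2.43.

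Per length, the means over the 4 libraries placed *Dusp1* first at 84.0 FPKM, *Fos* at 66.8, *Klf2* at 34.3, *Ier2* at 24.7, *Atf3* at 19.7, *Klf4* at 15.7, *Jun* and *Junb* at 11.8 each, *Egr1* at 11.2 and *Fosb* at 5.37 FPKM. Each neighboring pair in this order had overlapping ranges over the libraries. *Dusp1* was the most abundant in 3 libraries and *Fos* in WT replicate 2. *Dusp1* stayed between the 94.0th and the 96.4th percentile of tested identifiers, while *Junb* moved from the 42.6th in WT replicate 1 to the 87.9th in miR-187 replicate 2. WT replicate 1 was the lowest library for 9 of the 10 genes, all but *Jun*, against 22.0% of identifiers and 32.5% of those at 5 FPKM or more.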

How the data were processed

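RNA-Seq was analyzed from heart libraries of WT (n = 2) and miR-187 (n = 2) mice at P0, grouped by the sample titles. The authors deposited 1 table of FPKM values, 1 column per library, under Ensembl identifiers without gene names; HISAT2, StringTie, DESeq2 and mm10 stand in the submitters' processing notes with no role or version. Annotation and use of strand are not given in the sources used here, so reads of overlapping or antisense genes cannot be separated. FPKM values hold no counts, so depth is unknown, and no depth-based interval is given.

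The 10 genes were matched by identifier with the version dropped (10 of 10 found, 1 row each); names come from the definition of the set. The genes and all lists were chosen with earlier results of these data known. All 10 are named, whatever their values. Further lists (other immediate early genes, upstream regulators, heat shock genes, endothelial flow genes, cell type markers) were not analysed here, as 0 of 49997 rows of the RefSeq table carried an Ensembl identifier; positions (GRCm38.p6) were matched by symbol.

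Values were transformed as log2(FPKM + 1), which understates changes of low genes, and identifiers with a mean of at least 1 FPKM were fitted with limma 3.58.1 in R 4.3.3 (eBayes with a mean-variance trend, no replicate block, two-sided, Benjamini-Hochberg, threshold 0.05). Intervals are 95%. An exact permutation test of 2 against 2 libraries cannot go below p = 0.333 and was not used. The fit was tested on simulated data. As alternatives, 0.1 was added before the logarithm, the minimum mean was set to 0.1 or 5 FPKM or dropped, and libraries were rescaled by median centring, TMM factors (30% and 5% trimmed), quantile normalization or, added after seeing the data, without the most abundant identifiers. The trend was left out, a replicate block was added, and each library was omitted in turn. Figures were drawn with matplotlib 3.10.9.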

Additional observations from a re-analysis of the deposited data

How the results depend on the processing

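None of the 10 genes passed the threshold under any alternative that kept all 4 libraries. Under these, 6 genes were higher and 4 lower, as reported, apart from the rescaling without the most abundant identifiers, chosen after seeing the data, which gave 9 higher and 1 lower (*Fos* 0.012, *Atf3* 0.033 and *Egr1* 0.026 turned positive). With the replicate block the lowest adjusted p of the 10 genes was 1.00 (limma), while calls over all identifiers came to 33 higher and 18 lower against 0 and 1 without it; deviations of same-numbered libraries correlated across identifiers with r = -0.068, and no pairing was assumed. A minimum mean of 0.1 FPKM gave 31 and 15 calls over all identifiers and the rescaling 27 and 11, with 0 of the 10 genes among them. Under the rescaling the log2 difference of *Junb* was 0.84 (limma unadjusted p = 0.0449). No other unadjusted p of the 10 genes was under 0.05 with all 4 libraries kept. The median log2 difference under the rescaling was 0.195 for the 10 genes and 0.043 for all identifiers.

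Omission of a library decided every direction. The lone library of a group was assumed to vary like the others. In these fits, as with the replicate block, limma took the variance of a gene almost wholly from the trend over all identifiers (14325 total degrees of freedom). The spread of the gene itself therefore had little weight in the calls. The median log2 difference of the 10 genes was lowest at -0.37 (WT replicate 1 omitted) and highest at 0.67 (WT replicate 2 omitted). Genes whose remaining miR-187 values all lay above the remaining WT values numbered 0 to 9 (9 without WT replicate 2, with 28.4% of all identifiers) and those whose values all lay below numbered 0 to 4 (4 without WT replicate 1, with 34.3% of all identifiers). Called higher genes numbered 0 to 1 (*Junb*) and called lower genes 0; over all identifiers, 11 to 62 were called higher and 14 to 56 lower. The log2 difference ranged from -1.05 to 0.85 for *Fos*, from -1.15 to 0.68 for *Fosb*, from -0.56 to 0.59 for *Jun*, from -0.36 to 1.83 for *Junb*, from -1.003 to 0.85 for *Atf3*, from -1.07 to 0.91 for *Egr1*, from -0.20 to 1.12 for *Ier2*, from -0.27 to 0.64 for *Dusp1*, from -0.045 to 0.57 for *Klf2* and from -0.086 to 0.41 for *Klf4*. Depth limits cannot be given without counts.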
